A study of Mus musculus with 13 samples.

Results

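The 9 genes described here encode the intracellular relay of cytokine signalling and its feedback brakes: the transcription factors Stat2, Stat3, Stat5a, Stat5b and Stat6, the kinase Jak2, and the suppressors of cytokine signalling Socs1, Socs2 and Socs3. They were selected by symbol, and each matched 1 of the 16382 Ensembl genes in the deposited count tables. RNA-seq was performed on myotubes of C2C12, an immortalised line of mouse myoblasts that fuse into multinucleated fibres when serum is lowered. From day 8 of differentiation they were kept for 24 h with 10 μM palmitoylethanolamide (PEA), a fatty acid amide, or with DMSO alone as vehicle (CON), and 6 libraries were made per treatment. All libraries come from 1 line in culture, without the immune, endothelial and connective tissue cells of muscle. Wells were run in duplicate, as technical replicates, within repeated experiments, so that the 6 libraries of a treatment come from fewer independent experiments. No label ties a library to its repeat, and n counts libraries throughout. The p-values therefore measure only the spread between these libraries, part of which is technical.

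A cytokine that binds its receptor activates Janus kinases on the receptor's inner side. The kinases phosphorylate STAT proteins, which pair, enter the nucleus and bind short DNA motifs near their target genes. STAT2 works with IRF9 in the complex that answers type I interferons, STAT3 answers the interleukin-6 family, STAT5A and STAT5B answer growth hormone and several interleukins, and STAT6 answers interleukin-4 and interleukin-13. Several SOCS genes are themselves STAT targets, and their proteins switch the receptor complex off. In muscle, STAT3 signalling is known for its part in satellite cell behaviour and in wasting, and STAT5B for the growth hormone response.

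The promoter stretches that hold the motif of a STAT complex are shown because the values of these genes are described further on. The 250 bases before each annotated transcription start (RefSeq, placed on GRCm39 by exact match) were searched on both strands for the core of the interferon-stimulated response element, TTTCNNTTTC, and for the core of the gamma-activated site, TTCNNNGAA. Windows were found for 8 of the 9 genes. Stat2 held 1 interferon-stimulated core, Socs1 held 2 that overlap each other, and Socs3 held 1 gamma-activated core. The windows of Stat3, Stat5a, Stat5b, Stat6 and Jak2 held neither sequence of letters. Of all 32851 mouse windows of this length, 2.98% held the interferon-stimulated core and 7.02% the gamma-activated core. Capitals mark the cores in the following stretches, printed 5′ to 3′ along the gene's strand.
Stat2, chr10:128106117-128106351, plus strand, outside annotated exons: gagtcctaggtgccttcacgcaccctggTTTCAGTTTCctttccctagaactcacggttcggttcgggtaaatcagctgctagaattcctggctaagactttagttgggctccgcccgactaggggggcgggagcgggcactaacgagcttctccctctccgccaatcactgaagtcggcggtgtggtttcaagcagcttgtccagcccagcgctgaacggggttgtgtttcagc
Socs1, chr16:10603461-10603490, minus strand, within an annotated exon: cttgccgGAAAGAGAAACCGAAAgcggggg
Socs3, chr11:117860327-117860356, minus strand, within an annotated exon: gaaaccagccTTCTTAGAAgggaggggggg
Counted back from the RefSeq start, the Stat2 core occupied bases -222 to -213, the Socs1 cores -83 to -74 and -77 to -68, and the Socs3 core -154 to -146. For Socs1 and Socs3 the GENCODE annotation places a start further upstream, and only the 30 bases around the cores are given.

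Library depth ranged from 12354845 to 50397444 estimated counts, and the deepest library, CON 1, was 2.25 times as deep as the next. All 17 myotube markers listed passed the filter on low counts, and their summed normalized counts ranged from 137250 to 205125 in CON and from 141576 to 159841 in PEA. So did 9 of 10 myoblast markers, all 10 dividing cell markers and 5 of 6 fibroblast markers, so that passing the filter does not identify the cells. The paper states that unfused myoblasts are also present in its cultures. Normalized counts are the deposited counts divided by 1 factor per library. CON 3 and CON 6 stood apart in the genes that STAT2 is known to drive. For 39 such target genes the mean deviation of log2 CPM (counts scaled to the library total) from each gene's mean over the 12 libraries was -1.52 in CON 3 and -1.37 in CON 6, against -0.26 to 0.62 in the other 4 CON libraries and 0.13 to 0.70 in PEA. Results that involve these genes are therefore also given without CON 3 and CON 6. Both libraries were picked by the values of these genes. For Stat2 and genes of the same pattern, leaving them out narrows the CON spread by selection. The p-values of that fit are therefore a description and no independent support.

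Levels were compared between the genes as CPM per kilobase of the canonical transcript. Stat3 was the most abundant of the 9, at 49.8 ± 2.92 in CON (mean ± SD, n = 6), and its lowest CON library lay above every library of the next gene. Socs3 followed at 23.2 ± 3.40, Socs2 at 17.0 ± 1.31, Stat2 at 12.9 ± 5.66 and Jak2 at 12.1 ± 0.476. In CON the ranges of Socs3 and Socs2, of Socs2 and Stat2, and of Stat2 and Jak2 overlapped, so that these neighbours in the order did not separate beyond their spread. Stat5a at 8.22 ± 0.853 and Stat5b at 6.32 ± 0.547 also overlapped each other and lay below Jak2. Socs1 at 1.85 ± 0.542 and Stat6 at 0.249 ± 0.0993 closed the order without overlap. In PEA the mean of Stat2 was 22.8 ± 4.21, above the mean of Socs2 at 17.2 ± 0.930, and the ranges of these genes still overlapped. With the union of all annotated exons as the length, the CON level of Socs2 was 2.83 in place of 17.0, and Socs2 then stood below Stat5b at 4.65 and Stat5a at 3.94. Stat3 at 22.5 was then much nearer to Socs3 at 17.3, and Jak2 at 10.5 stood above Stat2 at 9.18. Whether ranges overlap with this length was not tested, so the separations above hold for the canonical length only.

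**Figure D1:**
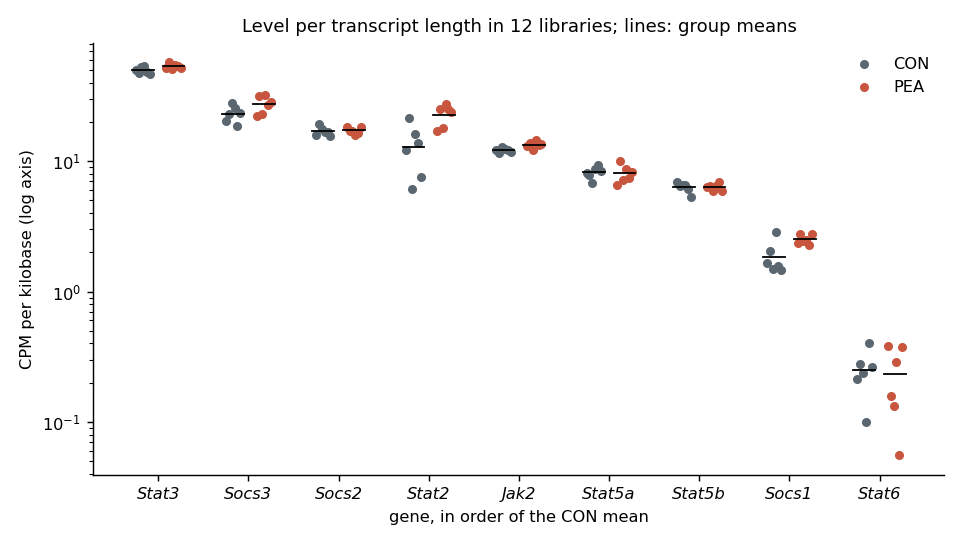
Level of each gene in CPM per kilobase of canonical transcript (log axis), with genes along the horizontal axis in order of their CON mean, a point per library and a line at each group mean. Stat3 lies highest, with a CON mean of 49.8, Stat6 lies lowest at 0.249, and only Stat2 and Socs1 show a wide spread in CON together with a narrower, higher group in PEA.

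The comparison of PEA with CON asked how the transcripts of this relay stood after 24 h of treatment. Stat2 was higher in PEA, and it was the only one of the 9 genes to pass an adjusted p-value of 0.05 in edgeR's quasi-likelihood test. Of all 13142 genes tested, 11.0% passed, 6.31% as higher in PEA and 4.74% as lower. All 9 genes passed the filter on low counts. The fitted difference was positive for 7 of the 9, with a median log2 fold change of 0.10, and over all genes tested it was positive for 51.3%, with a median of 0.005. Before adjustment, 5 of the 9 genes and 27.4% of all genes tested had p-values below 0.05. The CON and PEA ranges of normalized counts overlapped for every one of the 9, and did not overlap for 4.34% of all genes tested.

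Stat2 (ENSMUSG00000040033, GRCm39 chr10:128106352-128128735, plus strand) encodes the STAT that is specific to the interferon complex. Its normalized counts were 1047, 1850, 526, 1402, 1186 and 650 in CON 1 to CON 6, and 1486, 2166, 1549, 2353, 2179 and 2065 in PEA 1 to PEA 6. The 4 highest PEA libraries lay above every CON library, and 5 of 6 CON libraries lay below every PEA library. CON 2 was the exception, with a value between those of PEA 3 and PEA 6. The mean was 1110 ± 489 in CON and 1966 ± 360 in PEA (n = 6 each), a log2 fold change of 0.83 (SE 0.23, 95% interval 0.35 to 1.31, edgeR adjusted p = 0.0276), or 78.0% higher. Without CON 3 and CON 6, its lowest 2 libraries, the CON mean was 1371 ± 351 and the log2 fold change 0.53 (SE 0.15, edgeR adjusted p = 0.0381), in a fit that called 6.31% of its genes. When single libraries were left out, the log2 fold change lay between 0.69 and 1.04. The call was lost in 6 of these 12 fits, with adjusted p-values up to 0.0629 (edgeR), namely without CON 1, CON 6, PEA 2, PEA 4, PEA 5 or PEA 6. In bulk RNA, a higher level in every cell and a larger share of cells that express the gene cannot be told apart.

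**Figure D2:**
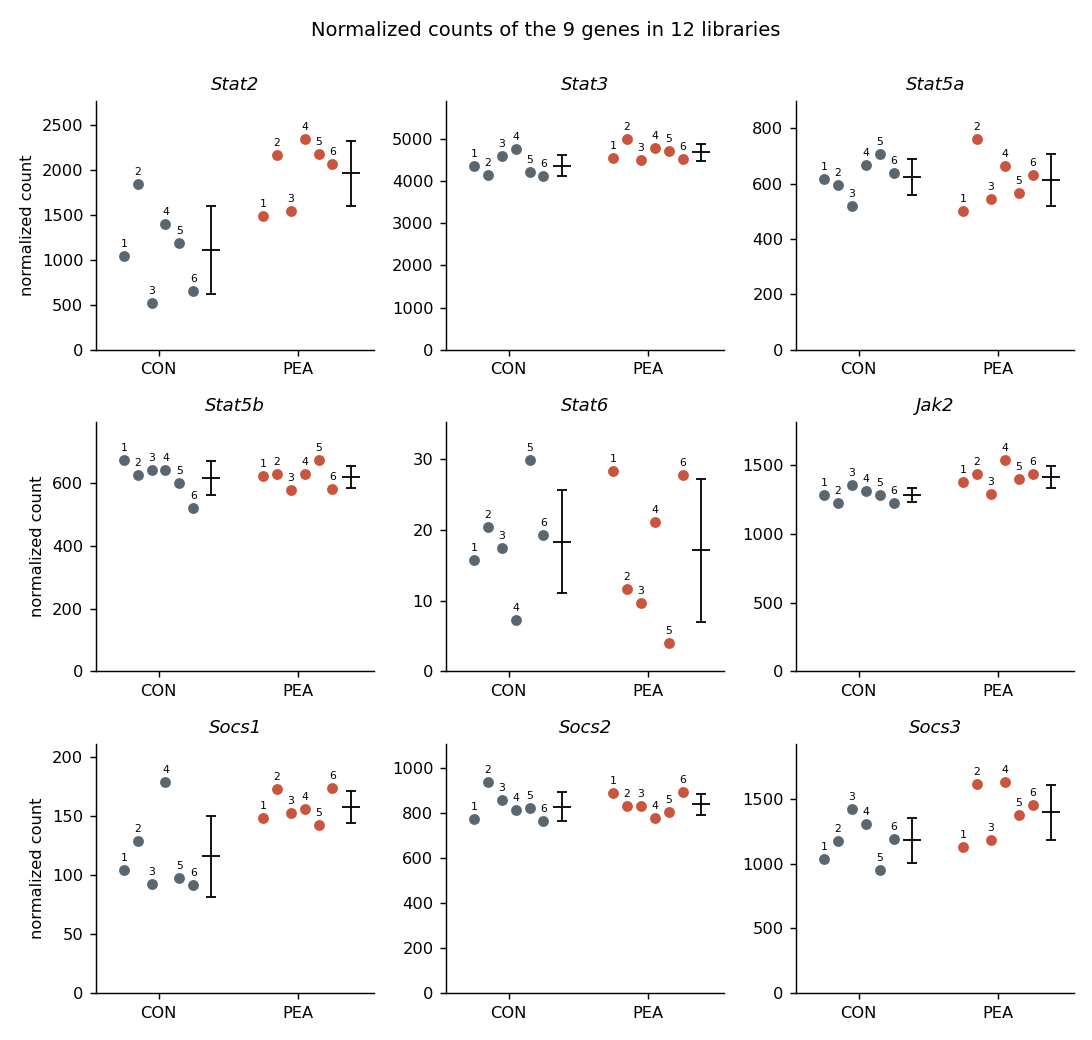
Normalized counts of the 9 genes in each library, 1 panel per gene with its own linear axis from 0; points are libraries labelled with their replicate number, and the bar beside each group is mean ± SD (n = 6). Stat2 ranges from 526 to 1850 in CON and from 1486 to 2353 in PEA, and the groups overlap in every panel.

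Irf9, the DNA-binding subunit of the interferon complex, also had its lowest values in CON 3 and CON 6. It ranged from 689 to 1877 normalized counts in CON (median 1276) and from 1496 to 1965 in PEA (median 1722), with CON 2 and CON 4 within the PEA range. Its log2 fold change was 0.48 (SE 0.18, 95% interval 0.10 to 0.87) and did not pass the test (edgeR adjusted p = 0.0948). Without CON 3 and CON 6 it was 0.21 (edgeR adjusted p = 0.233), and without CON 2 it was 0.64 (edgeR adjusted p = 0.0118). Irf9 passed with limma-voom (adjusted p = 0.0484) and not with DESeq2 (adjusted p = 0.141). The 3 genes whose pattern over the 12 libraries was most like that of Stat2, after each treatment's mean was removed from log2 CPM, were Trim30a, Tor1aip1 and Herc6, each with Pearson r = 0.99, the highest among 12560 genes. For every member, the top of such a search over few libraries has a high r by selection alone. No chance level was computed, so the nearest patterns given here and below are a description and do not show shared regulation.

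Of the 39 tested targets of STAT2 and IRF9, 9 rose in PEA, 1 fell and the other 29 were higher in PEA without passing the test. The median log2 fold change of the list was 0.78. Cmpk2, a mitochondrial nucleotide kinase, rose from 154 ± 89.1 normalized counts to 315 ± 76.4 (1.04 on the log2 scale, SE 0.28, edgeR adjusted p = 0.0258). Lgals3bp, a secreted galectin-binding protein, rose from 6115 ± 2959 to 11213 ± 1925 (0.88, SE 0.24, edgeR adjusted p = 0.0276). Ifi27 fell from 6232 ± 280 to 5105 ± 515 without overlap between the groups (-0.29, SE 0.06, edgeR adjusted p = 0.00705). Without CON 3 and CON 6 the list's median was 0.41 and 5 of its genes were called, 4 as higher and 1, Ifi27, as lower (edgeR adjusted p = 0.00867). Lgals3bp was among them (edgeR adjusted p = 0.0382) and Cmpk2 not (edgeR adjusted p = 0.0609). Of the 12 fits that left out a single library, 6 lost the call of Cmpk2 (without CON 5, CON 6, PEA 2, PEA 4, PEA 5 or PEA 6) and 7 that of Lgals3bp (these libraries and CON 1), with edgeR adjusted p-values up to 0.0657 and 0.0612.

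Ifnb1 and Ifng, the only interferon genes among those analysed, were scarce. Ifnb1 held 9 estimated counts in total over the 6 CON libraries and 7 over the PEA libraries, and Ifng held 31 and 9, too few for either gene to enter the test. These totals are not scaled for depth. Normalized counts of Ifng ran from 3.06 to 7.86 in CON and from 0.0 to 3.03 in PEA, with at most 8 estimated counts in a library. Those of Ifnb1 ran from 0.0 to 4.72 and from 0.0 to 3.23. No other type I, II or III interferon gene was among the genes analysed here, so that the levels of the others are not known.

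**Figure D3:**
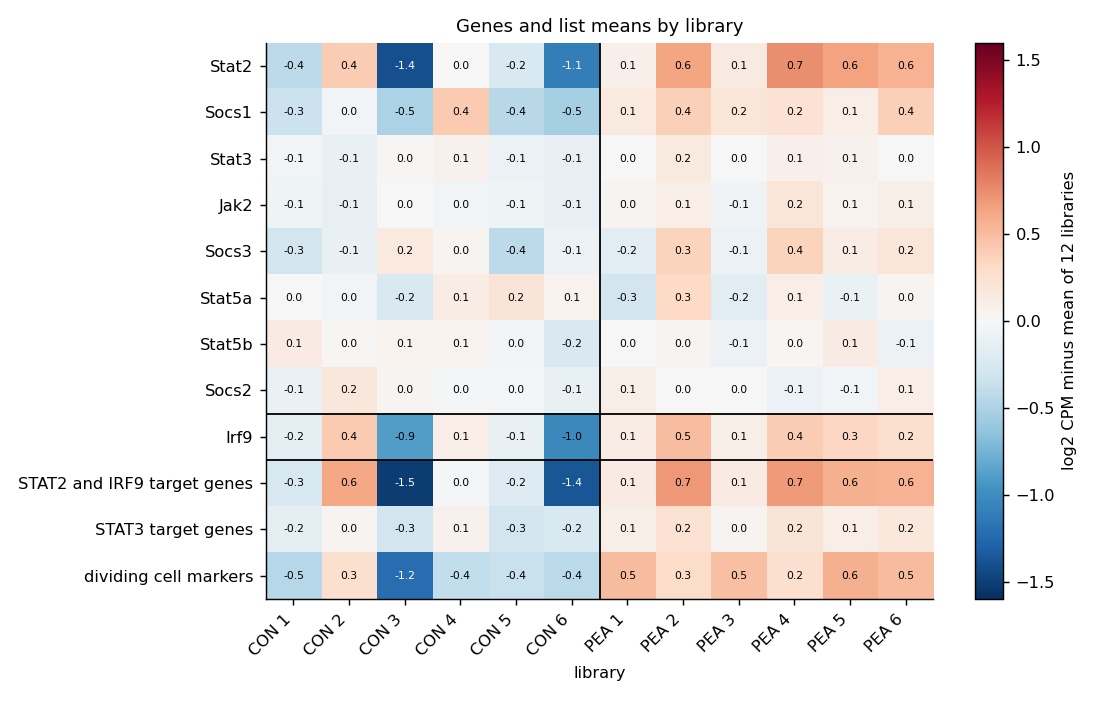
Deviation of log2 CPM from the mean of the 12 libraries (colour and printed value), for 8 of the 9 genes and Irf9, and for the mean over the genes of 3 lists, by library. Stat2, Irf9 and the 39 target genes are lowest in CON 3 and CON 6 and high in CON 2, whereas Stat3, Jak2 and Socs2 stay between -0.13 and 0.19 throughout.

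Socs1 (ENSMUSG00000038037, GRCm39 chr16:10600104-10603875, minus strand) encodes a direct inhibitor of Janus kinases. Its normalized counts in CON 1 to CON 6 were 104, 129, 92.6, 179, 97.5 and 91.5, and in PEA 1 to PEA 6 they were 148, 173, 152, 156, 142 and 174. All 6 PEA libraries lay above 5 of the CON libraries, and CON 4 lay above every PEA library. The means were 115 ± 33.9 and 157 ± 13.1, a log2 fold change of 0.46 (SE 0.15, 95% interval 0.13 to 0.78), which did not pass the test (edgeR adjusted p = 0.0644). The paper describes Socs1 as downregulated by PEA, the direction opposite to these values. The count of Socs1 passed with DESeq2 (adjusted p = 0.036), limma-voom (adjusted p = 0.0218) and limma on log2 normalized counts with a pseudocount of 1 (adjusted p = 0.0475), which called 14.5%, 12.4% and 11.5% of their genes. It passed in 4 of the 7 alternatives that used all 12 libraries without a block. Without CON 4 alone the log2 fold change was 0.61 and the edgeR adjusted p = 0.00684, and without CON 3 and CON 6 they were 0.32 and 0.254. Of the 12 fits that left out a single library, 2 called Socs1, those without CON 2 or CON 4. The edgeR adjusted p-values of the others rose to 0.136 (without CON 6). The libraries held between 62 and 271 estimated counts of Socs1. The genes with the most similar pattern within treatments were H2-T5 and Gm14269 (r = 0.93) and H2-K2 (r = 0.91).

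Jak2 (ENSMUSG00000024789, GRCm39 chr19:29228677-29290505, plus strand), the kinase of the growth hormone and interferon-gamma receptors among others, differed little but evenly. Its normalized counts ran from 1225 through a median of 1282 to 1356 in CON, and from 1287 through 1414 to 1536 in PEA. PEA 3 alone lay within the CON range, and the other 5 PEA libraries lay above it. The means were 1280 ± 50.1 and 1411 ± 81.8, a log2 fold change of 0.14 (SE 0.05, 95% interval 0.04 to 0.24), 10.4% in linear terms, which did not pass the test (edgeR adjusted p = 0.0643). It passed when PEA 3 was left out (edgeR adjusted p = 0.0356) and in none of the other 11 such fits. Jak1 and Tyk2, the kinases of the interferon receptors, had log2 fold changes of -0.02 each, with 95% intervals of -0.11 to 0.07 and -0.16 to 0.12. Jak3, the kinase of the common gamma chain, was low, with a mean normalized count of 50.6 ± 17.1 in CON against 65.5 ± 18.3 in PEA (difference 0.37 on the log2 scale, SE 0.23, edgeR adjusted p = 0.327).

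**Figure D4:**
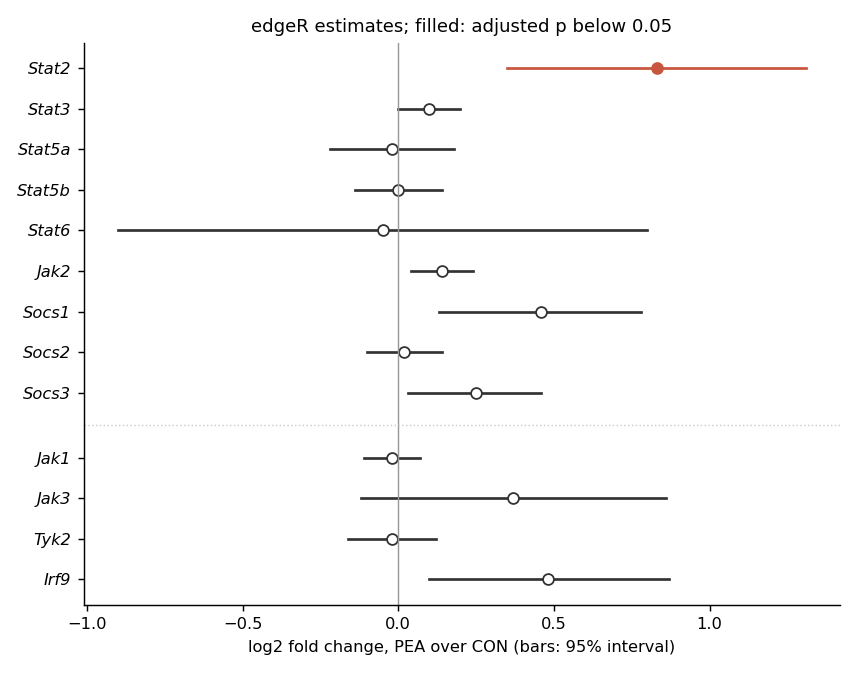
log2 fold change of PEA over CON (horizontal axis) with its 95% interval from edgeR for the 9 genes, above the dotted line, and for 4 other genes of the relay below it. Stat2 alone is filled, at an adjusted p below the threshold of 0.05, and the interval of Stat6 is the widest, from -0.90 to 0.80.

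Stat3 (ENSMUSG00000004040, GRCm39 chr11:100775924-100830450, minus strand) ranged from 4112 to 4744 normalized counts in CON (median 4281) and from 4496 to 5000 in PEA (median 4620). Every PEA library lay above the CON median, and CON 3 and CON 4 lay inside the PEA range. The means were 4358 ± 256 and 4671 ± 196, a log2 fold change of 0.10 (SE 0.05, 95% interval 0.00 to 0.20, edgeR adjusted p = 0.169). Differences of STAT3 mRNA say nothing of its phosphorylation, which was not measured in these libraries. Socs3 (ENSMUSG00000053113, GRCm39 chr11:117856905-117860898, minus strand), an inhibitor of the receptors that activate STAT3, ranged from 953 to 1425 in CON (median 1183) and from 1128 to 1635 in PEA (median 1415). PEA 2, PEA 4 and PEA 6 lay above every CON library, and PEA 1, PEA 3 and PEA 5 lay within the CON range. The means were 1181 ± 173 and 1399 ± 212, a log2 fold change of 0.25 (SE 0.10, 95% interval 0.03 to 0.46), which did not pass the test (edgeR adjusted p = 0.131). Of 24 tested STAT3 targets, 6 rose, none fell, and the median log2 fold change was 0.15. They included Junb, a subunit of the AP-1 transcription factor (0.41, SE 0.08, edgeR adjusted p = 0.0063), Osmr, the oncostatin M receptor chain (0.27, SE 0.05, edgeR adjusted p = 0.0046), and Birc5, a mitotic regulator that is also in the list of dividing cell markers (0.66, SE 0.15, edgeR adjusted p = 0.0111). Without CON 3 and CON 6, 5 of the 24 were called, 4 as higher and 1 as lower, and the median was 0.14. The nearest patterns within treatments were those of Hgf, Kif21a and Mypop for Stat3 (r = 0.88), of Odc1, Thumpd3 and Uck2 for Socs3 (r = 0.94, 0.91 and 0.90), and of Lztfl1, Utp25 and Tspyl2 for Jak2 (r = 0.93, 0.92 and 0.89).

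Stat5a (ENSMUSG00000004043, GRCm39 chr11:100750177-100776065, plus strand) and Stat5b (ENSMUSG00000020919, GRCm39 chr11:100671556-100741589, minus strand) are neighbours 8587 bases apart and nearly copies of each other. Their aligned coding sequences were identical at 2125 of 2343 bases (90.7%). Of the 50-base windows of Stat5a's coding sequence, 26.1% occurred in Stat5b. This window is the read length that the paper's methods state, and its alignment report gives a longer average length. The longest coding stretch that both share within 1 exon had 152 bases, and is shown because a read inside it fits either gene (Stat5a at chr11:100765165-100765316, Stat5b at chr11:100689060-100689211, GRCm39).
Stat5a and Stat5b, coding strand: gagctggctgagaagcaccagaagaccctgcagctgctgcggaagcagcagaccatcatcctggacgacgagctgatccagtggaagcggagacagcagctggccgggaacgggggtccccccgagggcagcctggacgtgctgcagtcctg
Neither gene had a whole-number count in any of the 12 libraries, yet the counts of both added to within 0.0101 of a whole number in each. In CON 2, for example, 555.42 and 582.58 gave 1138. The division between these genes is therefore an estimate of the authors' quantification, and their sum is the firmer value.

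Stat5a ranged from 518 to 708 normalized counts in CON (median 628) and from 503 to 763 in PEA (median 599), with a log2 fold change of -0.02 (95% interval -0.22 to 0.18, edgeR adjusted p = 0.906). Stat5b ranged from 519 to 673 in CON (median 633) and from 579 to 673 in PEA (median 625), with a log2 fold change of 0.00 (95% interval -0.14 to 0.14, edgeR adjusted p = 0.98). PEA 1 and PEA 2 held the lowest and the highest Stat5a value of the 12 libraries. The sum was 1240 ± 71.2 in CON and 1231 ± 103 in PEA (difference of log2 values -0.014, two-sided exact permutation p = 0.812). The share of Stat5a in the sum was 50.3% ± 3.96 and 49.5% ± 3.92 (exact permutation p = 0.766). The smallest p that 924 assignments allow is 0.00216. Of 9 tested STAT5 targets, 2 rose and none fell (median 0.15). These were the kinase gene Pim1 (0.41, SE 0.12, edgeR adjusted p = 0.0301) and the growth arrest gene Gadd45g (0.30, SE 0.09, edgeR adjusted p = 0.0425). The list shares 6 genes with that of STAT3 targets, Bcl2l1, Bcl6, Ccnd1, Gadd45g, Pim1 and Serpina3n, so that the lists are not separate evidence. In the fit without CON 3 and CON 6 the list's median was 0.12 and 2 of its genes were called, Ccnd1 as higher and Serpina3n as lower, both named here after their values were seen. Pim1 and Gadd45g were not called in it, where Pim1 was at 0.29 and Gadd45g at 0.18 (edgeR adjusted p = 0.121 and 0.159). Single libraries left out ended the call of Pim1 in 7 of 12 fits (CON 3, CON 5, CON 6, PEA 2, PEA 4, PEA 5 or PEA 6) and that of Gadd45g in 8 (CON 1, CON 3, CON 6, PEA 2, PEA 3, PEA 4, PEA 5 or PEA 6). Stat3 and Stat5a overlap at their 3′ ends by 142 exonic bases on opposite strands, which reads from a library without strand marks cannot assign. The nearest patterns within treatments were those of Supt5 (r = 0.91), Zfp579 and Irf2bpl (r = 0.90) for Stat5a, and of Bcl9 (r = 0.90), Sytl5 (r = 0.89) and Tefm (r = 0.86) for Stat5b.

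**Figure D5:**
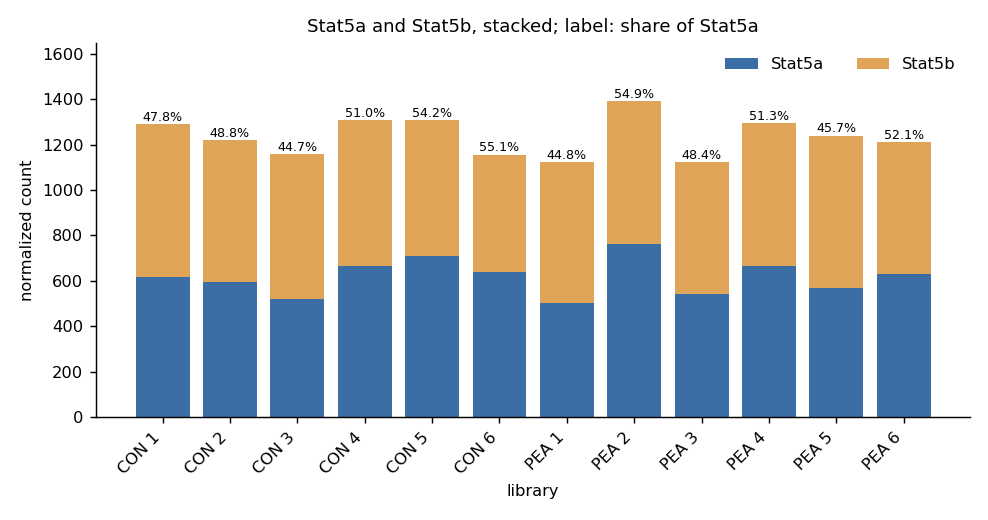
Stacked normalized counts (vertical axis, from 0) of Stat5a and Stat5b in each library, with the share of Stat5a printed above each bar. The shares run from 44.7% in CON 3 to 55.1% in CON 6, and the sums of CON and PEA cover similar ranges.

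Socs2 (ENSMUSG00000020027, GRCm39 chr10:95219523-95253929, minus strand), a brake on growth hormone signalling, ranged from 765 to 938 normalized counts in CON (median 815) and from 777 to 894 in PEA (median 830). The groups covered nearly the same range, and the highest value was that of CON 2. The log2 fold change was 0.02 (SE 0.06, 95% interval -0.10 to 0.14, edgeR adjusted p = 0.852). Its nearest patterns were those of Wdr45b (r = 0.89), Hoxc5 (r = 0.88) and Acy3 (r = 0.86).

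Stat6 (ENSMUSG00000002147, GRCm39 chr10:127477821-127496862, plus strand) was close to the limit of detection, with 4 to 41 estimated counts per library. Its normalized counts ran from 7.30 through a median of 18.4 to 29.9 in CON and from 4.08 through 16.4 to 28.4 in PEA. The log2 fold change was -0.05 with a 95% interval of -0.90 to 0.80 (edgeR adjusted p = 0.953), an interval that leaves room for a difference of either sign. Of 6 tested STAT6 targets, 1 fell and none rose (median 0.19), namely the transglutaminase gene Tgm2, from 765 ± 81.5 to 591 ± 39.5 without overlap between the groups (-0.37, SE 0.07, edgeR adjusted p = 0.0046). With CON 3 and CON 6 left out, Tgm2 was again the 1 gene called, as lower, and the median was 0.06.

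Upstream of the 9 genes, 11 cytokine ligands were tested. Of these 1 fell and none rose, with a median log2 fold change of 0.00. The one that fell was Il12a, the smaller interleukin-12 subunit, from 75.7 ± 17.3 to 37.6 ± 8.48 normalized counts (-0.99, SE 0.20, edgeR adjusted p = 0.00584). Of 27 receptor chains, 2 rose and 2 fell (median 0.04). With CON 3 and CON 6 left out, 1 was called as higher, Osmr, and 2 as lower, Lifr and Csf2rb, and the median was -0.05. Lifr, the leukaemia inhibitory factor receptor and like Osmr a partner of the shared chain Il6st, fell from 2423 ± 253 to 1849 ± 216 (-0.39, SE 0.08, edgeR adjusted p = 0.00577). Csf2rb, the common beta chain, fell from 1097 ± 106 to 861 ± 75.4 (-0.35, SE 0.07, edgeR adjusted p = 0.00681). None of 16 further JAK-STAT inhibitors passed the test with edgeR or DESeq2, their median was -0.03, and the one with the smallest p-value was Usp18, an interferon receptor brake (0.81, SE 0.38, edgeR adjusted p = 0.185). Usp18 passed with limma-voom (1.22, adjusted p = 0.0468) and with edgeR when CON 2 was left out (1.24, adjusted p = 0.017), and was at 0.34 without CON 3 and CON 6 (edgeR adjusted p = 0.351).

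Markers of other cell states moved beside these genes. All 10 dividing cell markers rose (median log2 fold change 0.83), with the smallest p-values for Kif11 (0.95), Top2a (0.95) and Aurkb (0.87), and their summed normalized counts ran from 2836 to 7378 in CON and from 7486 to 9102 in PEA, with CON 3 lowest. Leaving out CON 3 and CON 6 gave 9 calls among the 10 and a median of 0.66. Of the 17 myotube markers 6 fell and none rose (median -0.21), with the smallest p-values for Tnni2 (-0.47), Actn2 (-1.08) and Myl1 (-0.40). In the fit without CON 3 and CON 6, 10 of the 17 were called and the median was -0.41. Of 9 tested myoblast markers 2 fell and none rose (median -0.10), Id3 (-0.40) and Cdh15 (-0.25). Without CON 3 and CON 6 Cdh15 was called and Id3 was not (edgeR adjusted p = 0.00394 and 0.0648), and 9 of the 12 single-library fits lost the call of Cdh15, all but those without CON 3, PEA 1 or PEA 3. Of 5 tested fibroblast markers 1 rose, Dcn (0.48), and the median of the 5 was 0.23. Dcn did not pass with DESeq2 (adjusted p = 0.0512) or without CON 3 and CON 6 (edgeR adjusted p = 0.0683), a fit in which the median was 0.07 and Col3a1, named here after its values were seen, was called as lower. Dcn kept its call in 3 of the 12 single-library fits, those without CON 2, CON 3 or PEA 1. The 5 leukocyte markers in the tables summed to 74.3 to 155 normalized counts in CON and 103 to 134 in PEA. Most of this was Cd68, at 51.1 to 134 in CON and 72.5 to 125 in PEA, whereas Ptprc, the defining leukocyte marker, had no more than 6 estimated counts in any library. The 5 endothelial markers in the tables summed to 8.23 to 35.6 in CON and 26.6 to 44.9 in PEA. Among these, Lyz2 (0.19, edgeR adjusted p = 0.789) and Vwf (0.85, edgeR adjusted p = 0.264) had the smallest p-values. The part of the dividing and muscle cell markers in the differences of Stat2 and the other genes was not tested.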

How the data were processed

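RNA of 12 libraries (6 CON, 6 PEA) was sequenced as paired reads from a kit that does not mark strand. The labels hold 13 entries, since PEA 2 and its top-up run share 1 set of values. The authors aligned reads to mm39 with STAR and quantified Ensembl genes in Partek Flow, and deposited estimated counts of 16382 genes. In a second deposited table the signal is these counts divided by 1 DESeq2 median-ratio factor per library. Values above 0 were not whole (tolerance 0.0001) in 59.5% of cases, and all were rounded. The tables end at ENSMUSG00000089774, and 2240 protein-coding genes with higher identifiers were not analysed here. Symbols and positions came from GENCODE M39 (GRCm39) for 16343 genes.

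Counts were tested with edgeR 4.0.16 (TMM, default filter, quasi-likelihood, Benjamini-Hochberg over 13142 genes) in R 4.3.3, and DESeq2 1.42.0 and limma 3.58.1 served as alternatives. Fits were tested on simulated data. CPM used TMM factors of 0.988 to 1.02, and log2 CPM a prior count of 2. The biological coefficient of variation was 0.106. Intervals hold sampling of reads and differences between libraries, and nothing else. Members and lists were chosen with earlier results of these data known. Named are every member, the STAT and JAK genes outside them, up to 3 called genes per list with the smallest p-values (or the 1 with the smallest where none was called), the interferon ligands, and for each member the 3 genes of highest correlation over the 12 libraries among genes with a mean of at least 1 CPM. Stat6 was below this mean. A gene outside the members and a list of targets are not reported here. Alternatives were median-of-ratios factors, other filters and pseudocounts, the replicate number as a block, single libraries and CON 3 and CON 6 left out, and a threshold of 0.01. The exon union as length was chosen after seeing the data, and CON 3 and CON 6 were picked by their values of the STAT2 target genes.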

Additional observations from a re-analysis of the deposited data

How the results depend on the processing

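Among the 9 genes, 1 passed the test in the primary fit. DESeq2, limma-voom and limma on normalized counts (pseudocounts 1 and 0.5) each called 2, Stat2 and Socs1, and a threshold of 0.01 left 0. Leaving out single libraries gave 0 to 2. Stat2 was called in all 7 alternatives that used the 12 libraries without a block (adjusted p = 0.0121 to 0.0299). Over all genes the 1452 calls became 841 without CON 3 and CON 6, 405 at the threshold of 0.01 and 778 (without PEA 6) to 2203 (without CON 2) when single libraries were left out. The replicate numbers did not pair the libraries (correlations of same-numbered deviations -0.083 to 0.065, no library nearest to its own number), and the replicate block called 2 of the 9 genes and 1570 in all. With the block Irf9 and Usp18 passed (edgeR adjusted p = 0.0147 and 0.037) and Cdh15 did not (0.0536).

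Estimates near 0 changed sign. Stat5b went from 0.0032 to -0.0019 with median-of-ratios factors, -0.0032 with DESeq2, -0.0089 with limma-voom and -0.0402 without CON 3 and CON 6, and Lyz2 to -0.0144 without them. With single libraries left out, the log2 fold change ranged from -0.0954 to 0.0281 for Stat5a, -0.0418 to 0.033 for Stat5b, -0.26 to 0.15 for Stat6, -0.0003 to 0.0605 for Socs2, -0.0344 to 0.003 for Jak1 and -0.052 to 0.0162 for Tyk2, the log2 sum of Stat5a and Stat5b from -0.05 to 0.0118, and the share of Stat5a from -1.87 to 0.222 percentage points. The causes were not tested. Stat6 was left out where 10 counts were required in every library.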

Other observations

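PEA 1 and PEA 3 held the lowest 2 values of the PEA group for 4 of the 9 genes, Stat2, Stat5a, Jak2 and Socs3, and for 35 of the 39 targets of STAT2 and IRF9 (89.7%). The same was seen for 10 of 24 STAT3 targets (41.7%), for none of the 10 dividing cell markers and for 11.7% of all 13142 genes tested. This was noticed after the values had been seen, and the labels do not say what these libraries share. In CON, CON 2 held the highest values of Stat2 and Irf9, while its values of Jak2 and Stat3 were among the lowest 2 of its group.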
